A study of Capra hircus with 3 samples.

Results

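LEF1, IL7R, ITGA1 and CXCR4 are 4 genes used to tell circulating, antigen-inexperienced T cells from T cells that stay in a tissue. Their rows were taken by symbol from the 3 goat liver single-cell matrices, where they carry the identifiers ENSCHIG00000025316, ENSCHIG00000020828, ENSCHIG00000021216 and ENSCHIG00000013798. They make 4 of the 27271 genes measured, and all 4 were detected in every library.

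LEF1 encodes a DNA-binding partner of beta-catenin that, with TCF7, keeps the naive programme of T cells running. IL7R encodes the alpha chain of the interleukin-7 receptor, which carries the survival signal of naive and memory T cells and pairs with the common gamma chain encoded by IL2RG. ITGA1 encodes the alpha-1 integrin chain CD49a, which binds collagen IV and other collagens together with the beta-1 chain encoded by ITGB1 and is a usual marker of tissue-resident lymphocytes. CXCR4 encodes the receptor for the chemokine CXCL12, which directs lymphocytes and plasma cells to niches that make it. In liver, naive and recirculating lymphocytes pass through with the blood, while resident T and natural killer (NK) cells remain in the sinusoids.

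The study took livers from 15 female goats (Capra hircus) aged 3 to 4 years, in groups of 5 whose livers were pooled into a single 10x Genomics library per group. The Con group was healthy and ate the diet labelled LRDS. The NASH group, with non-alcoholic steatohepatitis, and the NASH-T group, described as tolerant to steatohepatitis, both ate the diet labelled HRDS, and the labels do not spell out either abbreviation. Livers were digested with trypsin, with no sort or gate named, so every liver cell type could enter a library. With 1 pooled library per group there is no spread between animals and no test: every interval below covers counting error only, and a difference between libraries cannot be told apart from a difference between pools, animals or preparations.

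After doublets were set aside the libraries held 7200 (Con), 8389 (NASH) and 8914 (NASH-T) cells with median depths of 2392.5, 2472.0 and 2127.5 unique molecular identifiers (UMIs), the counts of captured transcripts. Each pair of libraries shared 20 to 23 barcodes, at most 0.281% of the smaller library. Cells were clustered without the 4 genes and without the naive, residency and egress genes listed below, so that these could not shape the clusters, and clusters were named from marker genes with the ending "-like". T cell-like cells numbered 1245, 1220 and 1409 in Con, NASH and NASH-T, with median depths of 1163.0, 1010.0 and 1206.0 UMIs. All 16 T cell markers present in the files were detected in them, and those markers summed to 10744, 11053 and 10819 CPM (a gene's UMIs over those of the class, times 1e6). NK markers summed to 1217, 1334 and 1248 CPM in the T cell-like cells. In the cluster named NK cell-like they summed to 2553, 2227 and 2699 CPM, with NCAM1 and TYROBP at 0 in all libraries. T cell markers summed higher in that cluster, to 3659, 4259 and 3861 CPM, so its name is less certain. Hepatocyte markers, all 17 detected in the T cell-like cells, summed to 4703, 5425 and 5756 CPM, lowest in Con. Their part in the results was not tested.

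LEF1 stood highest in T cell-like cells in all 3 libraries. It reached 1397 CPM (95% Poisson interval 1339.5 to 1457) in Con, 916 CPM (866 to 969) in NASH and 1780.4 CPM (1720.2 to 1842) in NASH-T. T cell-like cells made up 17.3%, 14.5% and 15.8% of the cells and held 80.6%, 75.3% and 77.8% of all LEF1 UMIs. NK cell-like cells came next with 631, 413 and 593 CPM, and gamma-delta T cell-like cells, the T cells with the other type of antigen receptor, had 401, 349 and 499 CPM. NK cell-like cells were the higher of these 2 classes in every library, with intervals apart in Con (556 to 714 against 323 to 492) and overlapping in NASH and NASH-T. The larger classes outside the lymphocytes and B cell-like cells were far lower: endothelial-like cells had 34.3 to 38.1 CPM, and B cell-like, macrophage-like and hepatocyte-like cells had at most 10.6 CPM. LEF1 therefore marked the T, gamma-delta T and NK cell-like classes against the rest of the liver, with T cell-like cells at the top.

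IL7R did not follow that order. It was highest in gamma-delta T cell-like cells, at 1809.7 CPM (1639 to 1993) in Con, 1806 CPM (1607 to 2022) in NASH and 1464 CPM (1347 to 1589.8) in NASH-T. T cell-like cells were below them in every library, at 956 (908 to 1006), 547 (509 to 588) and 729.5 CPM (691 to 769). The intervals of the classes did not overlap. NK cell-like cells held 97.3, 184 and 86.3 CPM, macrophage-like cells 8.27 to 13.9 CPM and hepatocyte-like cells at most 4.10 CPM. T cell-like and gamma-delta T cell-like cells together thus carried most IL7R, 63.4% and 22.5% of its UMIs over the 3 libraries.

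ITGA1, the residency integrin, was highest outside the lymphocytes. Endothelial-like cells held the most, 1005 CPM (934 to 1080.2) in Con, 1219.7 in NASH and 1218 in NASH-T. The class of stellate, fibroblast or smooth muscle-like cells followed with 635, 440.0 and 359 CPM. Among lymphocytes it was found in NK cell-like cells at 434 (372 to 504), 288 (219 to 373) and 191 CPM (156 to 232), and in T cell-like cells at 344 (315 to 374), 200.2 (177 to 225) and 266 CPM (243 to 290.5). NK cell-like cells were above T cell-like cells in Con and NASH, with intervals that touched, and below them in NASH-T. Hepatocyte-like cells had 172, 164 and 252 CPM, while macrophage-like and B cell-like cells had 7.71 to 14.6 CPM. T cell-like cells held 7.22% of all ITGA1 UMIs and hepatocyte-like cells 52.5% and endothelial-like cells 24%. In cells thinned to 500 UMIs, 12%, 7.13% and 10.0% of T cell-like cells had an ITGA1 UMI against 7.63%, 7.01% and 11.9% of hepatocyte-like cells. In NASH and NASH-T the T cell-like share was thus close to or below the hepatocyte share. The level of 11.4 to 12.7 CPM in macrophage-like cells, in turn, was far below that of T cell-like cells in every library.

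CXCR4 was sparse, with 554 UMIs in all. It was highest in plasma cell-like cells of Con and NASH-T, at 142 CPM (93.3 to 206) and 350.4 CPM (290.3 to 419), and stood at 25.1 CPM (3.04 to 90.8) in those of NASH. B cell-like cells had 82.6, 0 and 88.6 CPM. T cell-like cells had 19.8 (31 UMIs), 10.2 (14 UMIs) and 14.5 CPM (27 UMIs), and macrophage-like cells 11.9, 9.61 and 14.1 CPM. T cell-like and macrophage-like cells were therefore not separated by this gene. Only 2.17%, 1.07% and 1.70% of T cell-like cells had any CXCR4 UMI, and among cells thinned to 500 UMIs the share was 0.562%, 0.492% and 1.06% against 0.105%, 0.0987% and 0.128% of hepatocyte-like cells.

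**Figure D1:**
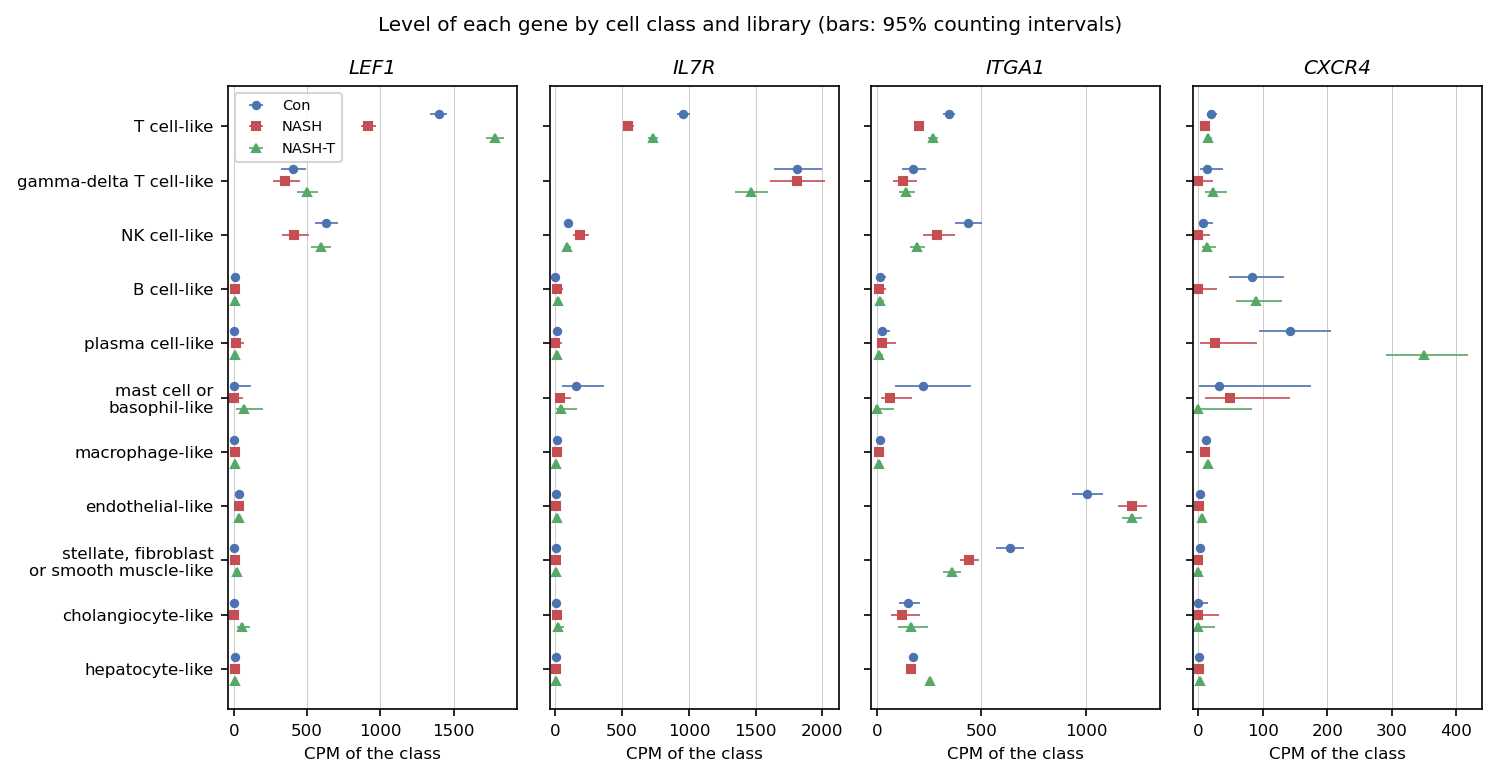
Level of each gene, in CPM on a linear axis, by cell class (rows) and library (colours and shapes), with 95% Poisson intervals as bars. LEF1 peaks in T cell-like cells, IL7R in gamma-delta T cell-like cells (1464 to 1809.7 CPM), ITGA1 in endothelial-like cells (1005 to 1219.7 CPM) and CXCR4 in plasma cell-like cells of Con and NASH-T.

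Within T cell-like cells all 4 genes were lower in NASH than in Con. LEF1 stood at 0.656 of its Con level (95% interval 0.611 to 0.703), IL7R at 0.572 (0.524 to 0.625), ITGA1 at 0.583 (0.502 to 0.675) and CXCR4 at 0.517 (0.254 to 1.00). These are 1.52-, 1.75-, 1.72- and 1.94-fold lower, so 4 of 4 passed a difference of 1.5-fold downwards, where 8.77% of the 8518 genes measured with at least 20 UMIs did so. The interval of CXCR4 reached no difference. These intervals treat each UMI as independent, but the 2188 and 1254 LEF1 UMIs lay in 326 cells of Con and 233 of NASH. Intervals on UMIs, here and elsewhere in the text, are therefore too narrow where a cell holds several. Over 14 other ways of choosing or scaling the cells, all 4 stayed past 1.5-fold in 6; LEF1 did in 7, ITGA1 in 11, and IL7R and CXCR4 in 12 each, with no gene past it upwards.

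NASH-T lay between the other libraries for 3 of the 4 genes. Against Con, LEF1 was higher at a ratio of 1.27 (1.21 to 1.35), whereas IL7R at 0.763 (0.708 to 0.822) and ITGA1 at 0.774 (0.684 to 0.876) were lower. CXCR4 stood at 0.734 (0.422 to 1.27). None of the 4 passed 1.5-fold, with 7.09% of 8783 genes past it upwards and 7.26% downwards. Against NASH, LEF1 was 1.94 times as high (1.82 to 2.07), and 1 of 4 genes passed 1.5-fold upwards where 8.54% of 8638 genes did, and 0 of 4 downwards where 7.21% did. IL7R and ITGA1 were each 1.33 times as high as in NASH (1.22 to 1.46 and 1.14 to 1.55), and CXCR4 1.42 times (0.719 to 2.93). The comparisons share libraries, so they are not independent of each other. LEF1 was highest in NASH-T, while the other 3 genes were highest in Con. T cell-like cells held 4.07 LEF1 UMIs per ITGA1 UMI in Con (3.70 to 4.48), 4.58 in NASH (4.01 to 5.23) and 6.69 in NASH-T (6.09 to 7.37). The direction of LEF1 between NASH-T and Con depended on how T cells were chosen: with cells taken by at least 2 UMIs of CD3 genes in place of clusters, the ratio was 0.953. That of CXCR4 was 2.14 with the same choice, 1.67 in cells thinned to 500 UMIs and 0.256 in cells thinned to 1000, so these UMIs fix no direction for it.

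Part of the difference between NASH and Con lay in the make-up of the class. T cell-like cells fell into 2 clusters, numbered 10 and 12. Cluster 10 (771, 906 and 935 cells) was led by THEMIS, BCL11B, GRAP2, CD247 and CD6, genes of T cells. Cluster 12 (474, 314 and 474 cells) was led by LEF1, CAMK4, IL7R, JAZF1, BCL11B, INPP4B and ICOS. It formed 38.1%, 25.7% and 33.6% of T cell-like cells, least in NASH, and it carried more LEF1, IL7R and ITGA1 than cluster 10 in every library. When the NASH clusters were weighted as in Con, the ratios to Con were 0.856 for LEF1, 0.714 for IL7R, 0.678 for ITGA1 and 0.493 for CXCR4, so that only CXCR4 remained past 1.5-fold. The same weighting of NASH-T gave 1.40, 0.812, 0.816 and 0.754.

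In cluster 12, LEF1 stood at 2950.1 CPM in Con, 2571 in NASH and 4329 in NASH-T. The ratios were 0.871 (0.807 to 0.940) for NASH to Con, 1.47 (1.39 to 1.55) for NASH-T to Con and 1.68 (1.57 to 1.81) for NASH-T to NASH, the last past 1.5-fold with 11.2% of the genes of that cluster. NASH-T was the high library and NASH close to Con. IL7R stood at 1784, 1348 and 1418 CPM, with NASH and NASH-T alike below Con at ratios of 0.756 (0.681 to 0.837) and 0.795 (0.729 to 0.866). ITGA1 stood at 509, 394 and 477 CPM, and CXCR4 at 26.1, 7.39 and 20.2 CPM from 17, 3 and 14 UMIs.

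Cluster 10 showed the lower ITGA1 more strongly. Its ITGA1 was 226 CPM in Con, 118 in NASH and 141 in NASH-T, a ratio of 0.524 (0.413 to 0.661) for NASH and 0.622 (0.504 to 0.767) for NASH-T. Both were past 1.5-fold, as were 9.97% and 8.51% of the genes of that cluster downwards. IL7R was 368, 209.8 and 321 CPM there, lower in NASH at 0.570 (0.476 to 0.681) and near Con in NASH-T at 0.872. LEF1 was low throughout at 295, 219 and 268 CPM.

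**Figure D2:**
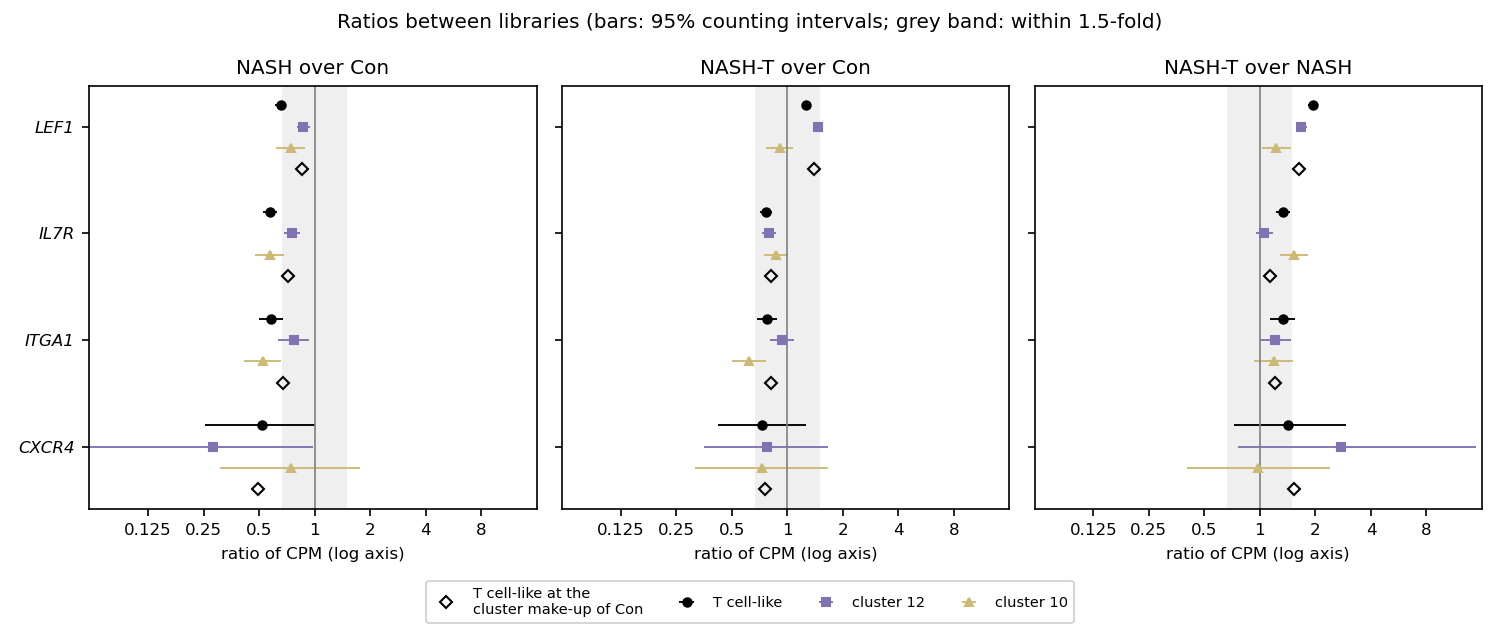
Ratio of CPM between libraries for each gene on a log axis, for all T cell-like cells, for clusters 12 and 10, and for T cell-like cells weighted at the cluster make-up of Con, with 95% counting intervals as bars (the weighted value has none, and the bar of CXCR4 in cluster 12 runs past the axis) and a grey band within 1.5-fold. LEF1 in T cell-like cells lies at 0.656 for NASH over Con and 1.94 for NASH-T over NASH, and moves to 0.856 and 1.63 at the make-up of Con.

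LEF1 was unevenly spread over the cells of cluster 12: 271 of 474 cells in Con, 179 of 314 in NASH and 156 of 474 in NASH-T had no LEF1 UMI, while the highest single cell of each library had 57, 53 and 63. Cells with LEF1 held a median of 6, 5 and 7 UMIs in cluster 12 and of 1 in every library in cluster 10. The cells were therefore read in 3 ranges of 0, 1 to 2 and 3 or more LEF1 UMIs, ranges chosen after the counts had been seen. Median depth was alike in them, 1246.0, 1209.0 and 1304.0 UMIs.

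Cells with 3 or more LEF1 UMIs made up 31.9% of cluster 12 in Con (exact binomial interval 27.7 to 36.3), 29.3% in NASH (24.3 to 34.7) and 54.0% in NASH-T (49.4 to 58.6). NASH-T stood apart, and Con and NASH overlapped. Within such cells LEF1 itself was 8393, 7992 and 7641 CPM, a ratio of 0.952 for NASH and 0.910 for NASH-T to Con, which is a description since LEF1 chose them. In cells thinned to 500 UMIs the share of cluster 12 with any LEF1 UMI was 34.8%, 35.0% and 58.4%, again highest in NASH-T. In cluster 10, cells with 3 or more LEF1 UMIs made up 4.28%, 2.65% and 3.74%.

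**Figure D3:**
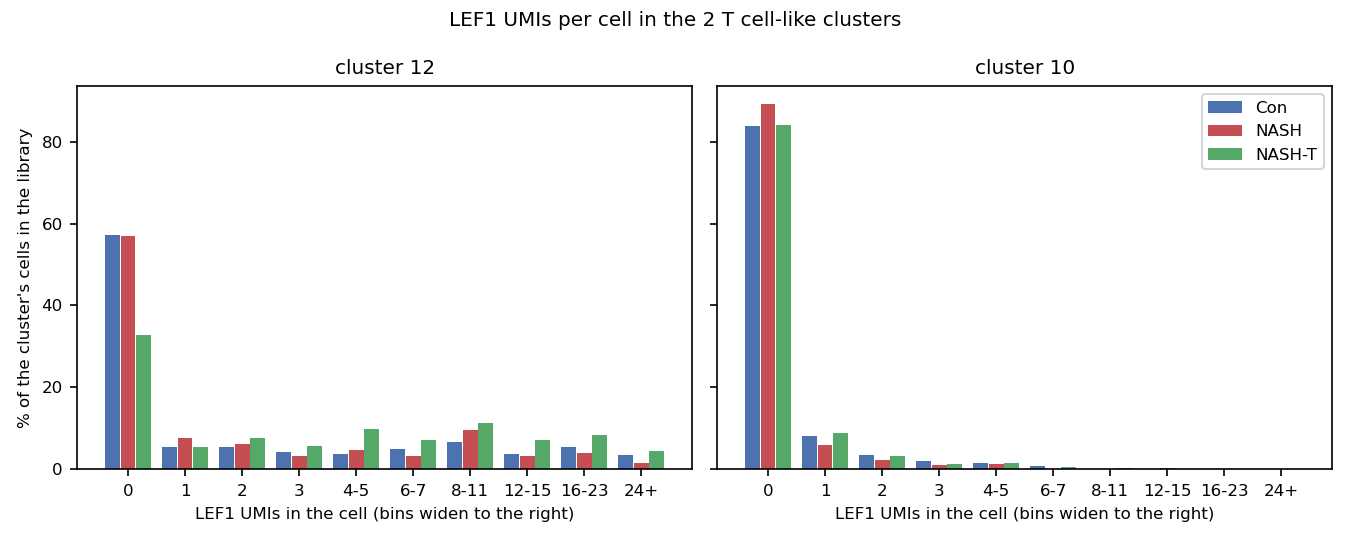
Share of the cells of cluster 12 (left) and cluster 10 (right) by their number of LEF1 UMIs, per library, on a linear axis that starts at 0, with bins that widen to the right. In cluster 12 the bar at 0 UMIs is lowest in NASH-T, and 54.0% of its cells have 3 or more against 31.9% in Con and 29.3% in NASH.

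LEF1-rich cells of cluster 12 carried more of most, not all, other measured genes of naive and recirculating T cells. Summed over the libraries, TCF7, the sister factor of LEF1, was at 17.4 CPM in cells with 0 LEF1 UMIs and 151 CPM in cells with 3 or more, a ratio of 8.69 (4.96 to 16.4). KLF2, which drives the genes of exit from tissue, went from 21.1 to 154 CPM (7.29, 4.35 to 13). BACH2, a repressor of effector fate, went from 155 to 1035 CPM, FOXP1, a quiescence factor, from 1512 to 6449 CPM, and ACTN1 from 37.3 to 380 CPM. Of 11 naive and central memory genes with at least 20 UMIs (LEF1 left out), 8 were at least 1.5-fold higher in LEF1-rich cells and 0 lower, and the median gene of that list had a log2 ratio of 2.45. Of all 6825 genes 13.4% were as much higher and 16.6% as much lower (median -0.03). IL7R (ratio 0.991), SATB1 (1.07) and FOXO1 (1.21) of the naive list stayed within 1.5-fold. The count of naive genes was 8 of 11 in Con, 6 of 9 in NASH and 8 of 11 in NASH-T. CCR7, a chemokine receptor for entry into lymph nodes, was near its detection limit with 0 against 6 UMIs.

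Several residency genes ran the other way, though not ITGA1. PRDM1, a factor of effector and resident cells, stood at 43.0 CPM in LEF1-rich cells and 194 CPM in those without LEF1 (ratio 0.222, 0.146 to 0.328). RGS1, which dampens chemokine receptors, had a ratio of 0.264, BHLHE40 of 0.218, DUSP4 of 0.159, DUSP6 of 0.191 and RUNX3 of 0.554. CD69, which holds lymphocytes in tissue and also marks recent activation, was instead higher at 199.7 against 84.5 CPM (2.36, 1.76 to 3.20). ITGAE, the epithelial integrin chain of resident cells, had a ratio of 1.74 (0.927 to 3.33), and CXCR6 had 0 UMIs in either range. Of 12 measured residency genes 7 were lower and 3 higher (median log2 ratio -0.90), where 16.6% of all genes were lower and 13.4% higher. Lower residency genes were 4 of 6 in Con, 2 of 4 in NASH and 3 of 5 in NASH-T. The same shares of all genes stand beside the egress and effector counts. Of 5 egress and recirculation genes 3 were higher (KLF2, KLF3 and ITGA4) and 1, ITGAL, was lower, at 347 against 1117 CPM. All 5 measured effector genes, TNF, FASLG, TBX21, HOPX and ZEB2, were lower. In single libraries only 4, 2 and 2 effector genes had enough UMIs, all of them lower. Outside the lists, and chosen after their values were seen, IL1RL1, the receptor for interleukin-33, was at 72.1 against 485 CPM and MAF at 178 against 629.9 CPM.

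Summed over the libraries, IL7R and ITGA1 were nearly alike in these cells. IL7R stood at 1529.8 CPM in LEF1-rich cells and 1544 CPM in cells without LEF1, a ratio of 0.991 (0.913 to 1.08). ITGA1 stood at 520.1 and 442 CPM, a ratio of 1.18 (1.01 to 1.36). CXCR4 was at 34.7 and 8.70 CPM, a ratio of 3.99 (1.68 to 10.9) from 25 and 7 UMIs. CXCR4, listed with the residency genes, was therefore found more with LEF1, and the summed levels of IL7R and ITGA1 differed little between the ranges. Both ranges were on the CD4 side, with CD4 at 225 and 211 CPM in cells without and with LEF1 and CD8A at 3 and 4 UMIs.

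**Figure D4:**
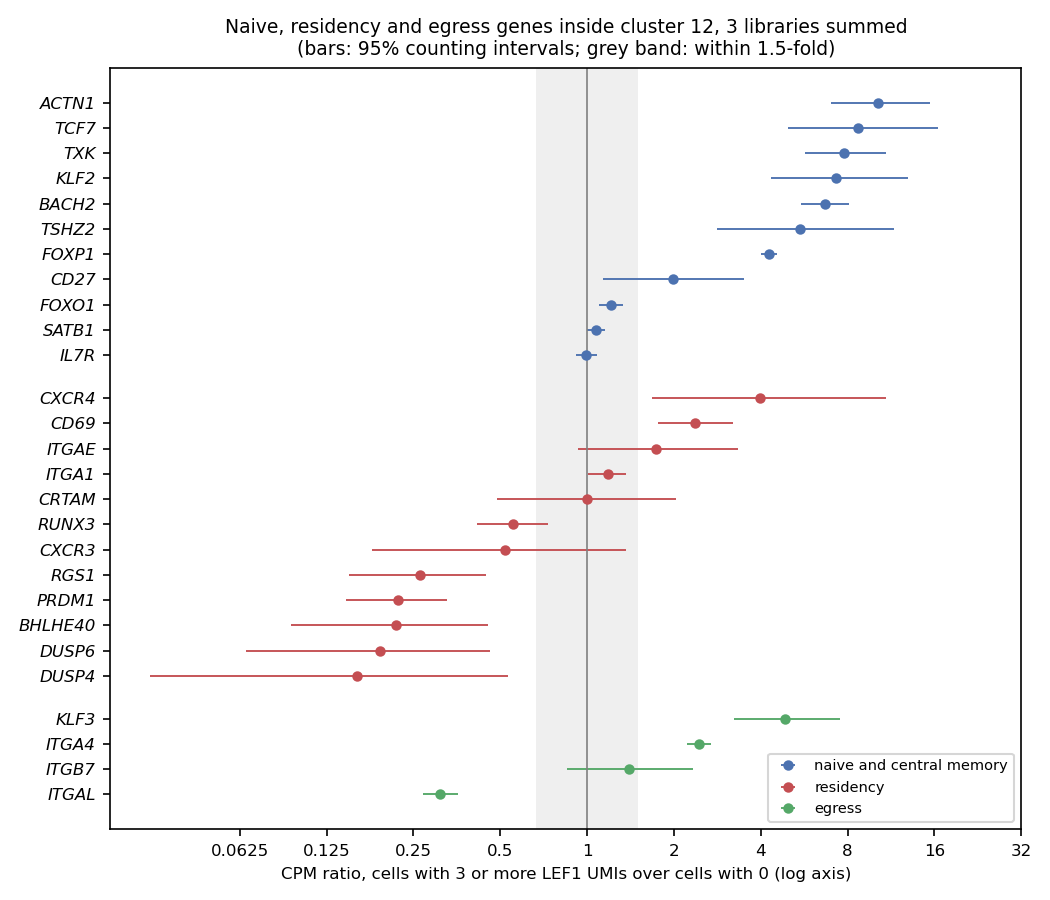
CPM ratio of cluster 12 cells with 3 or more LEF1 UMIs over those with 0, on a log axis, for naive (blue), residency (red) and egress (green) genes over the 3 libraries summed, with 95% counting intervals as bars and a grey band within 1.5-fold. ACTN1 lies at 10.2, TCF7 at 8.69, IL7R at 0.991, ITGA1 at 1.18 and PRDM1 at 0.222.

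The libraries differed in which of these cells held ITGA1. In Con it was lower in LEF1-rich cells than in cells without LEF1, at 433 against 577 CPM (ratio 0.751, 0.582 to 0.962). In NASH it was higher, at 497 against 347 CPM (1.43, 1.01 to 2.03), and in NASH-T at 578 against 327 CPM (1.77, 1.35 to 2.33). The summed ratio of 1.18 thus covered opposite directions. For IL7R only Con and NASH-T were opposite, at 0.855 (0.750 to 0.974) and 1.23 (1.07 to 1.43), with NASH at 1.02 (0.839 to 1.24). In cells without LEF1, ITGA1 was at 0.601 of Con in NASH (0.457 to 0.783) and 0.566 in NASH-T (0.428 to 0.742). In LEF1-rich cells the same ratios were 1.15 (0.817 to 1.60) and 1.33 (1.04 to 1.71). IL7R in cells without LEF1 was 1893 CPM in Con, 1289 in NASH and 1254 in NASH-T, ratios to Con of 0.681 (0.591 to 0.783) and 0.662 (0.574 to 0.762). In LEF1-rich cells it was 1619, 1319.7 and 1546 CPM, at 0.815 of Con in NASH (0.673 to 0.984) and 0.955 in NASH-T (0.835 to 1.09). In cells with 1 to 2 LEF1 UMIs it was at 0.934 (0.711 to 1.22) and 0.736 (0.568 to 0.953). TCF7 kept its pattern in every library, at 14.2, 17.8 and 22.1 CPM without LEF1 and 151, 196 and 137 CPM in LEF1-rich cells.

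**Figure D5:**
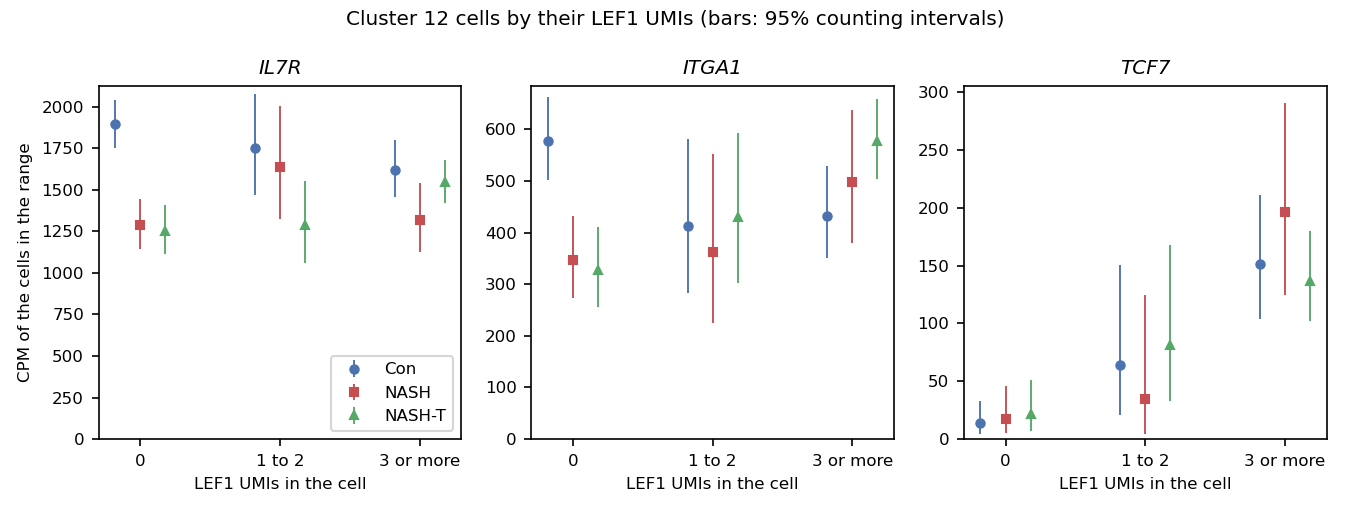
Level of IL7R, ITGA1 and TCF7, in CPM on linear axes that start at 0, in cluster 12 cells with 0, 1 to 2 and 3 or more LEF1 UMIs per library, with 95% Poisson intervals as bars. Without LEF1, ITGA1 is at 577 CPM in Con against 347 in NASH and 327 in NASH-T, and TCF7 is at 137 to 196 CPM in the range of 3 or more.

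In single T cell-like cells thinned to 500 UMIs, IL7R was found in 38.8% (35.3 to 42.3) of the 776 cells with a LEF1 UMI and 19.1% of the 3098 cells without. ITGA1 was found in 15.9% and 8.23%. Most of that went with the cluster: inside cluster 12, IL7R was in 48.4% of cells with LEF1 and 44.6% of cells without, and ITGA1 in 19.0% and 18.0%. Among 152 cells with a CD4 UMI, 37.5% had LEF1 and 43.4% had IL7R, while among 75 cells with a CD8A UMI 10.7% and 16% did. LEF1 and IL7R were thus found more often beside CD4 than beside CD8A, while ITGA1 was in 17.1% and 12%.

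Across the whole T cell-like class some genes of the naive list, which holds LEF1 and IL7R, differed between libraries. In NASH against Con, 4 of 13 measured naive genes were at least 1.5-fold lower (LEF1, IL7R, TSHZ2 and NOSIP) and 0 higher, where 8.77% of all genes were lower and 7.26% higher. LEF1 and IL7R are members reported above, so the genes that add to them were TSHZ2 and NOSIP. The median log2 ratio of the list was -0.22, against -0.01 for all genes. The count was 2 with cells chosen by CD3 UMIs, 1 in cells thinned to 1000 UMIs, and 0 with gamma-delta T and NK cell-like cells added or at 2-fold. TCF7 stood at 39.0, 43.1 and 51.1 CPM and did not share the lower LEF1 of NASH. In NASH-T against Con 2 of 13 were higher (7.09% of all genes), KLF2 and ACTN1, with KLF2 at 30.7, 26.3 and 64.1 CPM in Con, NASH and NASH-T and a ratio of 2.09 (1.48 to 2.99). In NASH-T against NASH 3 of 13 were higher (8.54% of all genes), LEF1, KLF2 and TSHZ2, and 5 were with cells chosen by CD3 UMIs.

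The residency list also leaned lower in NASH. Of 13 measured genes 4 were at least 1.5-fold lower than in Con (the members ITGA1 and CXCR4, with DUSP4 and CXCR3), where 8.77% of all genes were. ITGA1 and CXCR4 were reported as lower above, so the count is not separate support for them. The list had 1 higher gene, where 7.26% of all genes were higher: CRTAM, an adhesion receptor of cytotoxic cells, at 84.9 CPM in Con and 146 in NASH (1.72, 1.37 to 2.16). The median log2 ratio of the list was -0.38, and with at least 50 UMIs per gene only 1 was lower. In NASH-T against Con 0 of 14 passed in either direction (7.09% of all genes higher, 7.26% lower), and against NASH 3 of 13 were higher (8.54%), CD69, DUSP4 and CXCR3. CD69 stood at 107, 78.9 and 132 CPM, lowest in NASH. ITGAE stood at 26.2, 27.0 and 23.7 CPM, flat over the libraries, and ITGB1, the partner chain of ITGA1, at 82.4, 95 and 119.5 CPM. Of 5 measured egress genes 1 was lower in NASH than in Con (8.77% of all genes), ITGB7. S1PR1, the receptor for exit from tissue, had 2, 4 and 4 UMIs, too few for a ratio, and CXCR6 had 0, 1 and 0.

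The signalling partners were compared between NASH and Con, where 8.77% of all genes were at least 1.5-fold lower and 7.26% higher. The interleukin-7, LEF1 and CXCR4 lists each hold a member already given as lower, so their counts are not separate support for it. In the interleukin-7 list 2 of 9 measured genes were lower in NASH than in Con, IL7R and IL2RG, the latter at 12.8, 5.12 and 16.2 CPM from 20, 7 and 30 UMIs. In the list of LEF1 and beta-catenin partners 4 of 12 were lower in NASH (LEF1, TLE1, BCL9L and AXIN2) and 1 higher, TCF7L2, at 113, 183 and 118 CPM. TLE1 encodes a corepressor that binds LEF1, and stood at 65.1 CPM in Con and 35.1 in NASH. AXIN2, a usual target gene of beta-catenin signalling, stood at 15.3 CPM in NASH and 13.5 in NASH-T, 0.511 and 0.448 of its Con level, so it did not follow LEF1 in NASH-T. Of the CXCR4 axis 3 of 9 were lower in NASH, CXCR4, CD74 and MIF, and of 12 T cell receptor signalling genes 0 were lower and 1, LAT, higher.

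NK cell-like cells also had less ITGA1 in NASH and NASH-T than in Con. CD3G and CD3E were found in NK cell-like cells at 226 and 74.0 CPM over the libraries, against 233 and 97.3 CPM in cluster 12. There were 247, 144 and 330 NK cell-like cells. Their ITGA1 was at 0.664 of Con in NASH (0.484 to 0.898) and 0.441 in NASH-T (0.342 to 0.566), the latter 2.27-fold lower where 9.65% of the genes measured in NK cell-like cells were at least 1.5-fold lower. NASH-T, in between for ITGA1 in T cell-like cells, was the lowest library in NK cell-like cells. LEF1 in them was at 0.653 of Con in NASH (0.504 to 0.840) and 0.939 in NASH-T. In NASH against Con 2 of the 3 genes with at least 20 UMIs, LEF1 and ITGA1, were thus past 1.5-fold downwards (14.5% of genes), and IL7R was past it upwards at 1.89 (1.17 to 3.04; 12.7% of genes) from 39 and 37 UMIs. In NASH-T against NASH, IL7R at 0.470 (0.298 to 0.745) and ITGA1 at 0.664 (0.477 to 0.933) passed downwards, with 10.7% of genes. The IL7R UMIs lay in only 15, 15 and 21 cells of Con, NASH and NASH-T. These were 6.07% (3.44 to 9.82), 10.4% (5.95 to 16.6) and 6.36% (3.98 to 9.56) of the cells, with overlapping intervals. The intervals of the ratios do not allow for several UMIs in the same cell. CXCR4 had 3, 0 and 7 UMIs.

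In NK cell-like cells of Con, ITGA1 was found less often in cells with LEF1. It was in 19.2% (12.6 to 27.4) of the cells with a LEF1 UMI and 35.4% (27.2 to 44.4) of those without, at 224 and 655 CPM. In NASH the shares were 12% (4.53 to 24.3) and 21.3% (13.5 to 30.9), with overlapping intervals, at 174 and 364 CPM. In NASH-T they were 13.8% and 13%, at 204 and 182 CPM. The difference in ITGA1 between Con and NASH-T was thus larger in the cells without LEF1.

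Taken as a class, gamma-delta T cell-like cells differed less. None of the 3 genes with at least 20 UMIs passed 1.5-fold in NASH or NASH-T against Con, where 11.5% and 13.7% of genes passed upwards and 13.2% and 10.3% downwards. LEF1 was at 1.25 and IL7R at 0.809 (0.712 to 0.921) in NASH-T. The class was made of 2 clusters that differed in these genes. Cluster 20 (133, 83 and 159 cells) had LEF1 at 230.0, 236 and 284 CPM and IL7R at 1920.1, 2037 and 1662 CPM. Cluster 24 (20, 24 and 89 cells) had LEF1 at 1659, 848 and 1021 CPM, and IL7R at 996, 782 and 986 CPM. LEF1 was thus higher, and IL7R lower, in cluster 24 than in cluster 20, and cluster 24 was a larger part of the class in NASH-T. Between NASH-T and Con, LEF1 was higher in cluster 20 and lower in cluster 24, so the class ratio of 1.25 covered opposite directions. In cluster 24 LEF1 rested on 45, 26 and 116 UMIs.

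CXCR4 differed between libraries in the cells that held most of it. Plasma cell-like cells numbered 115, 49 and 161, and CXCR4 was detected in 24, 2 and 63 of them, with a highest count in a cell of 2, 1 and 9. The ratio of NASH-T to Con was 2.47 (1.62 to 3.91), where 11.9% of the genes of the class were at least 1.5-fold higher. NASH was at 0.178 of Con (0.0205 to 0.707) and rested on 2 UMIs, where 22.2% of genes were at least 1.5-fold lower. NASH-T was the high library and NASH the low library. Plasma cell-like cells of NASH-T were also deeper, with a median of 2013.0 UMIs against 1414.0 and 1413.0, and in cells thinned to 500 UMIs CXCR4 was in 4.35%, 0% and 15.5%, where 0 of 49 cells allows, at 3 counts, a share of cells with a UMI of up to 6.12%. JCHAIN, the joining chain of secreted antibodies, stood in them at 619, 1257 and 2167 CPM, so the plasma cell-like cells of the libraries differed in this marker. JCHAIN was also highest in NASH-T in T cell-like cells (26.2, 21.9 and 92.6 CPM) and in B cell-like cells (68.0, 69.4 and 215 CPM). Its part in the CXCR4 difference was not tested. B cell-like cells held 17 CXCR4 UMIs in 126 cells of Con, 0 in 98 cells of NASH and 26 in 192 cells of NASH-T. With 3 counts as the floor for NASH (23.1 CPM), the measured CXCR4 level was 3.57 times that floor in Con and 3.83 times in NASH-T. These are not lower limits, since the counting intervals were 48.1 to 132 CPM in Con and 57.9 to 129.8 CPM in NASH-T. In NASH the interval reached 28.4 CPM. Of the genes of B cell-like cells 13.9% were at least 1.5-fold lower in NASH than in Con. In NASH-T against NASH 16.6% were at least 1.5-fold higher.

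Outside the lymphocytes ITGA1 was the member with the highest counts. In endothelial-like cells it was 1.21 times as high in NASH (1.11 to 1.33) and in NASH-T (1.12 to 1.32) as in Con. In stellate, fibroblast or smooth muscle-like cells it was lower, at 0.693 (0.596 to 0.805) and 0.565 (0.481 to 0.663), the latter 1.77-fold lower where 10.4% of genes were at least 1.5-fold lower. In hepatocyte-like cells it was at 0.952 in NASH and 1.46 (1.39 to 1.54) in NASH-T. Against Con, ITGA1 of NASH-T was thus higher in hepatocyte-like cells and lower in the T cell-like, NK cell-like and stellate classes. Any link between these differences was not tested.

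The ligands were higher in other classes than in T cell-like cells. IL7, the ligand of IL7R, was found in hepatocyte-like cells at 110.0, 117 and 101 CPM and in stellate, fibroblast or smooth muscle-like cells at 87.9, 99.5 and 105 CPM. T cell-like cells held less of it, 42.2, 54.8 and 37.1 CPM. CXCL12, the ligand of CXCR4, was highest in macrophage-like cells at 760.2, 960.5 and 819.8 CPM and was higher in hepatocyte-like cells of NASH, at 393 CPM, than in those of Con and NASH-T, at 175 and 155 CPM. COL4A1, a chain of the collagen IV that the alpha-1 integrin binds, stood at 255, 381 and 331 CPM in stellate, fibroblast or smooth muscle-like cells and at 80.2, 169 and 124 CPM in endothelial-like cells, lowest in Con in both. ITGB1 was also highest in the stellate class, at 262, 273 and 263 CPM.

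Over 24 points, the 8 classes with at least 50 cells in each of the 3 libraries, the genes most like LEF1 by Pearson correlation of log2(CPM + 5) were CD3E, NDFIP2 and CFAP57 (r = 0.96 each). Those most like IL7R were BCL11B (0.98), UBASH3A and TRAT1 (0.97 each). Both sets hold genes of T cells. Those most like ITGA1 were CAPN2, COL14A1 (0.91 each) and RALGPS1 (0.90), and those most like CXCR4 were LIG1, U5 and U12 (0.86, 0.84 and 0.82), on sparse counts. LEF1 and IL7R had r = 0.88, ITGA1 and LEF1 0.36, and ITGA1 and IL7R 0.10. These are descriptions across points that share libraries and depth.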

How the data were processed

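UMI counts per gene and cell were deposited by the authors as 3 unnormalised 10x matrices, made with Cell Ranger 7.0.0 per the submitters' processing notes; which genome build and annotation went into them is not given in the sources used here. Livers were digested in 0.25% trypsin at 37 °C, per the labels' protocols. Cells with fewer than 200 genes, fewer than 500 UMIs or over 20% mitochondrial UMIs were removed (3 cells in all libraries), and 284, 342 and 459 doublets called with an expected rate of 0.06 were set aside. Cells were clustered with scanpy 1.11.5 (2000 variable genes, 30 components, 15 neighbours, Leiden resolution 0.8), with 38 member and list genes left out, into 26 clusters. A class was named from at least 3 markers at 2-fold. UMIs were summed per class and library and divided by the total (CPM), so class depth sets the precision. Poisson, conditional binomial and binomial 95% intervals are exact for independent counts. The Poisson and conditional binomial ones treat each UMI as independent. A gene was compared at 20 UMIs or more over both libraries, and 1.5-fold was the size counted. Ratio intervals were checked only on simulated Poisson counts. These have no spread between cells, so the check does not cover genes with several UMIs per cell. The genes and lists were chosen with earlier results of these data known. The text names the 4 members, list genes by count with the largest ratios, fixed partners, and 3 genes most like each member. A list gene is not reported here, and counts are given without it. No sequence is printed because no sequence file was used here.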

Additional observations from a re-analysis of the deposited data

How the results depend on the processing

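No paired analysis was possible because each group is a single library. Of 316 alternative values that answer a comparison, 243 stayed within the counting interval of the reported value or within 1.5 times its count, and 73 moved; of the levels and shares of the members in single libraries 110 stayed and 70 moved. The causes were not tested. No difference past 1.5-fold changed direction, while the smaller NASH-T to Con differences of LEF1 and CXCR4 did. With T cells taken by 2 CD3 UMIs in place of clusters, the NASH to Con ratio was 0.551 for LEF1, 0.472 for IL7R and 0.714 for ITGA1, the NASH-T to Con ratio 0.953 for LEF1, 0.704 for IL7R and 2.14 for CXCR4, and the NASH-T to NASH ratio 1.73 for LEF1, 1.49 for IL7R and 1.06 for ITGA1. With cells thinned to 1000 UMIs, NASH to Con was 0.725 for LEF1, 0.637 for IL7R and 0.226 for CXCR4, NASH-T to Con 0.879 for ITGA1 and 0.256 for CXCR4, and NASH-T to NASH 1.72 for LEF1 and 1.2 for IL7R. Thinned to 500 UMIs, NASH-T to Con was 1.40 for LEF1 and 1.67 for CXCR4, and NASH-T to NASH 2.08 for LEF1. With only cells of 500 genes and 1000 UMIs or more, NASH to Con was 0.641 for IL7R and 0.722 for ITGA1, and NASH-T to NASH 1.75 for LEF1 and 1.2 for IL7R. At Leiden resolutions of 0.4 and 1.2, LEF1 in NASH-T was at 1.14 of Con and 1.71 of NASH in both. With each library clustered on its own, NASH-T to Con was 1.03 for LEF1, 0.681 for IL7R and 0.670 for ITGA1, and NASH-T to NASH 1.63 for LEF1 and 1.18 for IL7R. With T, gamma-delta T and NK cell-like cells together, NASH to Con was 0.705 for IL7R, NASH-T to Con 1.19 for LEF1 and 0.683 for ITGA1, and NASH-T to NASH 1.71 for LEF1 and 1.13 for IL7R. With the unnamed T-lineage clusters added, chosen after seeing the data, LEF1 in NASH-T was at 1.15 of Con and 1.72 of NASH. At the make-up of Con, also chosen afterwards, NASH to Con was 0.856 for LEF1, 0.714 for IL7R and 0.678 for ITGA1, NASH-T to Con 1.40 for LEF1, and NASH-T to NASH 1.63 for LEF1 and 1.14 for IL7R. Thus 4 of 4 genes were past 1.5-fold lower in NASH than in Con under 6 of 14 alternatives, and LEF1 was past 1.5-fold higher in NASH-T than in NASH under all 14.

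LEF1 UMIs per ITGA1 UMI in Con were 5.78 with the CD3 choice, 4.68 and 3.5 thinned to 1000 and 500 UMIs, 4.75 with the stricter cell filter and 3.37 with the lymphocyte classes together. They were 5.25 in NASH thinned to 1000 UMIs, and 3.95 in NASH and 5.87 in NASH-T with the classes together. The 4 naive genes lower in NASH than in Con became 2 with the CD3 choice, 1 thinned to 1000 UMIs, and 0 with the classes together and at 2-fold. The 2 naive genes higher in NASH-T than in Con became 1 with the list genes clustered, with the classes together and at 2-fold, and the 3 higher than in NASH became 5 with the CD3 choice and 1 at 2-fold. Residency genes higher in NASH than in Con (1) became 2 with the CD3 choice and 0 with the classes together and at 2-fold, and those lower (4) became 1 with at least 50 UMIs and at 2-fold. Residency genes higher in NASH-T than in Con (0) became 3 with the CD3 choice and 2 with the unnamed clusters, and those lower (0) became 1 with the list genes clustered and 2 thinned to 1000 UMIs. Those higher in NASH-T than in NASH (3) became 1 with at least 50 UMIs and at 2-fold. In each library the class highest for each gene was the same under the alternatives run for it. Depth limits CXCR4 most, with 14 to 31 UMIs per library in T cell-like cells.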

Other observations

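T-lineage clusters 11 and 13 held members but were not named. Cluster 11, led by ADGRG1, RIPOR2 and SYNE1, had 150, 130 and 370 cells in Con, NASH and NASH-T, with LEF1 at 81.5, 49.4 and 84.5 CPM, IL7R at 223, 148 and 415 CPM and ITGA1 at 97.8, 28.2 and 106 CPM. It was low in LEF1 and highest in IL7R in NASH-T. Cluster 13, led by GPM6B, TOX and TRDC, a gamma-delta receptor gene, had 3, 9 and 46 cells with LEF1 at 0, 1043 and 783 CPM and CXCR4 at 0, 1 and 11 UMIs. The proliferation markers of plasma cell-like cells summed to 294, 302 and 215 CPM, and their part in the CXCR4 difference was not tested.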
